A study of Mus musculus with 4 samples.

Results

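The kinesins are the motor proteins that walk along microtubules or take them apart, and 36 of their genes were read in Neuro-2a cells, a line grown from a mouse neuroblastoma, with and without the pyrethroid insecticide deltamethrin. A gene was a member when its symbol began with Kif followed by a digit, and Kifc1, which the mitotic class names, was added. This gave 36 of 22206 probe sets, each of a different gene. Of these, 12 formed the mitotic class (Kif2c, Kif4, Kif11, Kif14, Kif15, Kif18a, Kif18b, Kif20a, Kif20b, Kif22, Kif23 and Kifc1) and the other 24, mainly motors of intracellular transport, formed the second class. Kif1c, Kif17, Kif25, Kif27 and Kif28 were not analysed here. Semi-confluent cells of the labelled strain, Albino strain A, were given 30 µM deltamethrin or vehicle, 0.1% DMSO, for 24 h, and both groups shared the same medium with serum. Each group had 2 arrays, which are called replicates 1 and 2 after their titles. The arrays were Affymetrix Clariom S Mouse, read as log2 expression after RMA, a method that corrects background and aligns the arrays. The labels do not say that the arrays came from separate cultures, so the p-values measure only the spread between these arrays, which may be technical.

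Kinesins share a motor domain that turns ATP hydrolysis into movement on the microtubule, and they differ in what they carry. Mitotic kinesins push the spindle poles apart, move or hold chromosomes, shorten microtubules at kinetochores and build the midzone where the cell divides, and their transcripts are known to be most abundant in G2 and mitosis. Transport kinesins carry vesicles, mitochondria and signalling complexes along axons and dendrites and are expressed in neurons that no longer divide. A neuroblastoma line divides and has neuronal features, so both classes are of interest in it.

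Promoters are shown first, because the classes differed in how often they held a short element. RefSeq windows on build GRCm38.p6, from 250 bases before to 50 bases after an annotated start, matched 29 of the 36 members, 11 of the 12 mitotic and 18 of the 24 others. The element searched for was the CHR (cell cycle genes homology region), spelled TTTGAA or TTCGAA, which as background is known from promoters of genes expressed in G2 and mitosis. The CCAAT box, spelled CCAAT and known as the site of NF-Y, was searched as well, both on either strand. Below, capitals mark CHR and CCAAT matches in windows printed 5′ to 3′ on the strand of the gene. Kif11, Kif18b and Kif20b were chosen as mitotic members with large estimates. Kif22 is the mitotic member that was not lower, Kif24 is an other kinesin with a CHR, and Kif5c is a neuronal transport kinesin with neither element. The windows lie at chr19:37376132-37376431 (plus strand), chr11:102925075-102925374 (minus), chr19:34922108-34922407 (plus), chr7:127042371-127042670 (minus), chr4:41464799-41465098 (minus) and chr2:49619036-49619335 (plus).
Kif11: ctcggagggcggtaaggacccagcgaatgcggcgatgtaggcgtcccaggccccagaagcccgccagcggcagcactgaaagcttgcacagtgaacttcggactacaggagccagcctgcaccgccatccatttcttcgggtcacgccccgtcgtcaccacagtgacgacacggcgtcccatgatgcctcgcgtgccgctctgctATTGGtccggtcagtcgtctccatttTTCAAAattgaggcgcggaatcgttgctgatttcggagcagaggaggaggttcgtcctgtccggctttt
Kif18b: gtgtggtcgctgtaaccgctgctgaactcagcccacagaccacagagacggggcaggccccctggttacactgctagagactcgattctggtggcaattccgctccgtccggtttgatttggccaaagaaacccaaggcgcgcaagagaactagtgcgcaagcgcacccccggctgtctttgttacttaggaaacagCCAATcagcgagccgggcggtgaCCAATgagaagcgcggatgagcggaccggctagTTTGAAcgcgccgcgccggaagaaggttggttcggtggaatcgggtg
Kif20b: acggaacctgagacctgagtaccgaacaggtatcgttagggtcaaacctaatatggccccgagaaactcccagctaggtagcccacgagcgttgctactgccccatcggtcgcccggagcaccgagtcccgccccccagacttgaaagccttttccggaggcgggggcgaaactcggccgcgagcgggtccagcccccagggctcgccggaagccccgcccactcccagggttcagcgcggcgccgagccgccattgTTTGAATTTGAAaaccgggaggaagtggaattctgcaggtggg
Kif22: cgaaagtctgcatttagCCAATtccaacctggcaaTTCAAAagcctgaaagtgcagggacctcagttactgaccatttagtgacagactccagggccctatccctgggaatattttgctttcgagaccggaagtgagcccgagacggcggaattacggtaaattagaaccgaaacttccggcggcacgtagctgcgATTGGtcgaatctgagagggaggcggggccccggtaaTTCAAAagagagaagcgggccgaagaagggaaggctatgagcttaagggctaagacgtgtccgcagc
Kif24: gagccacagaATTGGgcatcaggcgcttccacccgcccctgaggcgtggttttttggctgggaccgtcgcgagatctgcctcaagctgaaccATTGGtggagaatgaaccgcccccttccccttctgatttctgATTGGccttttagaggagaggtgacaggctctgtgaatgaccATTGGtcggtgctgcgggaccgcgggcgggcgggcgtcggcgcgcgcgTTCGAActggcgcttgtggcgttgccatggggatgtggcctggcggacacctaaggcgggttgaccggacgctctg
Kif5c: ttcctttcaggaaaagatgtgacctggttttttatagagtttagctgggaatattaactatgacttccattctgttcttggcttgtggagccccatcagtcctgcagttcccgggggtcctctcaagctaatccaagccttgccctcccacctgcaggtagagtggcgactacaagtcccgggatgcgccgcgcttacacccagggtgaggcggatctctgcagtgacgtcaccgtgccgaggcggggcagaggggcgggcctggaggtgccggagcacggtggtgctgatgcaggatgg

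A CHR was present in the windows of 10 of 11 mitotic kinesins (90.9%), in 3 of 22 windows of the other kinesins (13.6%, 18 genes) and in 19.2% of all 32851 windows. The mitotic exception was Kif18a, whose window held an E2F site instead. A CHR touched the 30 bases on either side of the annotated start in 8 of 11 mitotic kinesins (72.7%) and in 2 of 22 windows of the others (9.09%). The share was 3.72% of all windows, and the distance was chosen after the positions were seen. The 2 others were Kif24 and Kif26b. A CCAAT box was found for 7 of 11 mitotic kinesins (63.6%) and in 8 of 22 windows of the others (36.4%), against 37.4% of all windows. E2F sites, spelled TTTCCCGC, TTTCGCGC, TTTGCCGC or TTTGGCGC on either strand, were in the windows of Kif15 and Kif18a only among the members, against 2.26% of all windows. The tandem of GCGG, 4 bases of any kind and a CHR, which contains the CHR by construction, was in none of the members' windows and in 0.11% of all windows. These matches describe letters in a window, with no test and no measurement of binding.

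**Figure D1:**
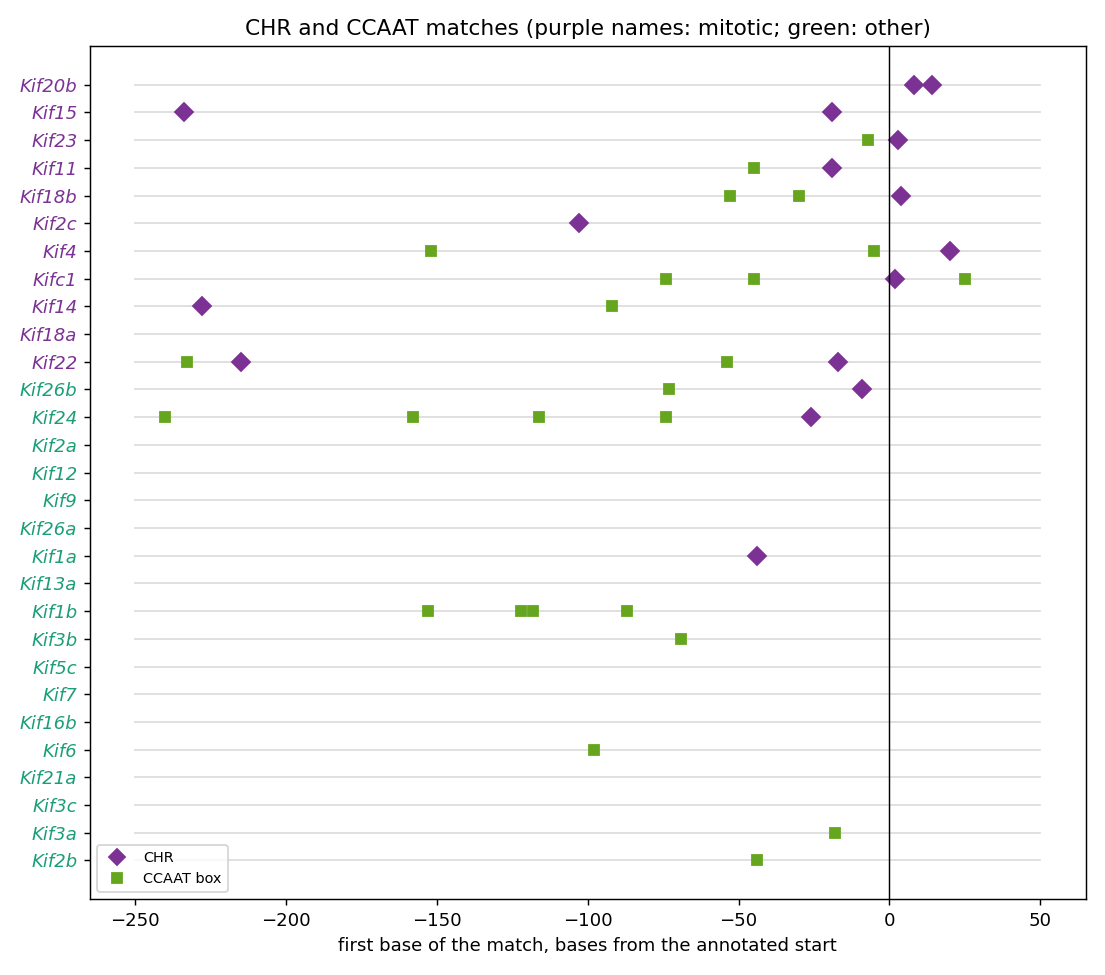
Positions of CHR matches (purple diamonds) and CCAAT boxes (green squares) in the promoter windows of the 29 members with a RefSeq window, as the distance in bases of the first base of the match from the annotated start. Mitotic members (purple names) carry a CHR in 10 of 11 cases, mostly near the start. Genes with 2 windows (Kif1a, Kif1b, Kif2a, Kif9) show the matches of both.

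In deltamethrin-treated cells 11 of the 12 mitotic kinesins had lower estimates and 1, Kif22, a higher one, with a median log2 fold change of -0.63. Their levels with deltamethrin ran from 54.1% of the vehicle level for Kif20b to 78.5% for Kif18a among the 11. Among the 24 other kinesins 13 had higher and 11 lower estimates, with a median of 0.04. Over all 22206 probe sets the median was -0.02, with 52.9% lower and 46.4% higher. In 11 of 12 mitotic kinesins both deltamethrin arrays lay below both vehicle arrays, as did 23.5% of all probe sets and 26.5% of those brighter than the median of all probe sets, which every mitotic kinesin was. In 3 of 24 other kinesins the order was the same, and in 7 of 24 both deltamethrin arrays lay above both vehicle arrays, as in 20.3% of all probe sets.

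These differences were tested with limma, and p-values were adjusted for all probe sets at once (Benjamini-Hochberg). None of the 36 kinesins passed an adjusted p of 0.05, a threshold that 96 probe sets or 0.432% passed (0.0766% lower and 0.356% higher). The smallest adjusted p was that of Kif20b, at 0.119. At an unadjusted p below 0.05 there were 8 lower and 0 higher among the 12 mitotic kinesins, and 1 lower and 2 higher among the 24 others, against 6.84% lower and 6.83% higher of all probe sets (8.49% lower of those above the median level). When the variance was allowed to depend on the level (limma with a mean-variance trend), 6 mitotic kinesins fell and 0 rose, and 0 of the other kinesins passed. In that fit 1.38% of all probe sets, and 2.65% of those above the median level, fell, and 2.25% of all rose. The 6 were Kif20b, Kif15, Kif11, Kif20a, Kif18b and Kif23, and for these "fell" is used with that fit alone. Of 8 measured markers of the neuroblastoma lineage 6 had lower estimates too, and 2 had higher ones, Th at 0.90 and Ddc at 0.13. The median of these markers was -0.38, and their part in these differences was not tested. The difference between the classes was not tested, and it is described by counts and medians. With 2 arrays against 2, an exact permutation test over arrays cannot give a two-sided p below 0.333.

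**Figure D2:**
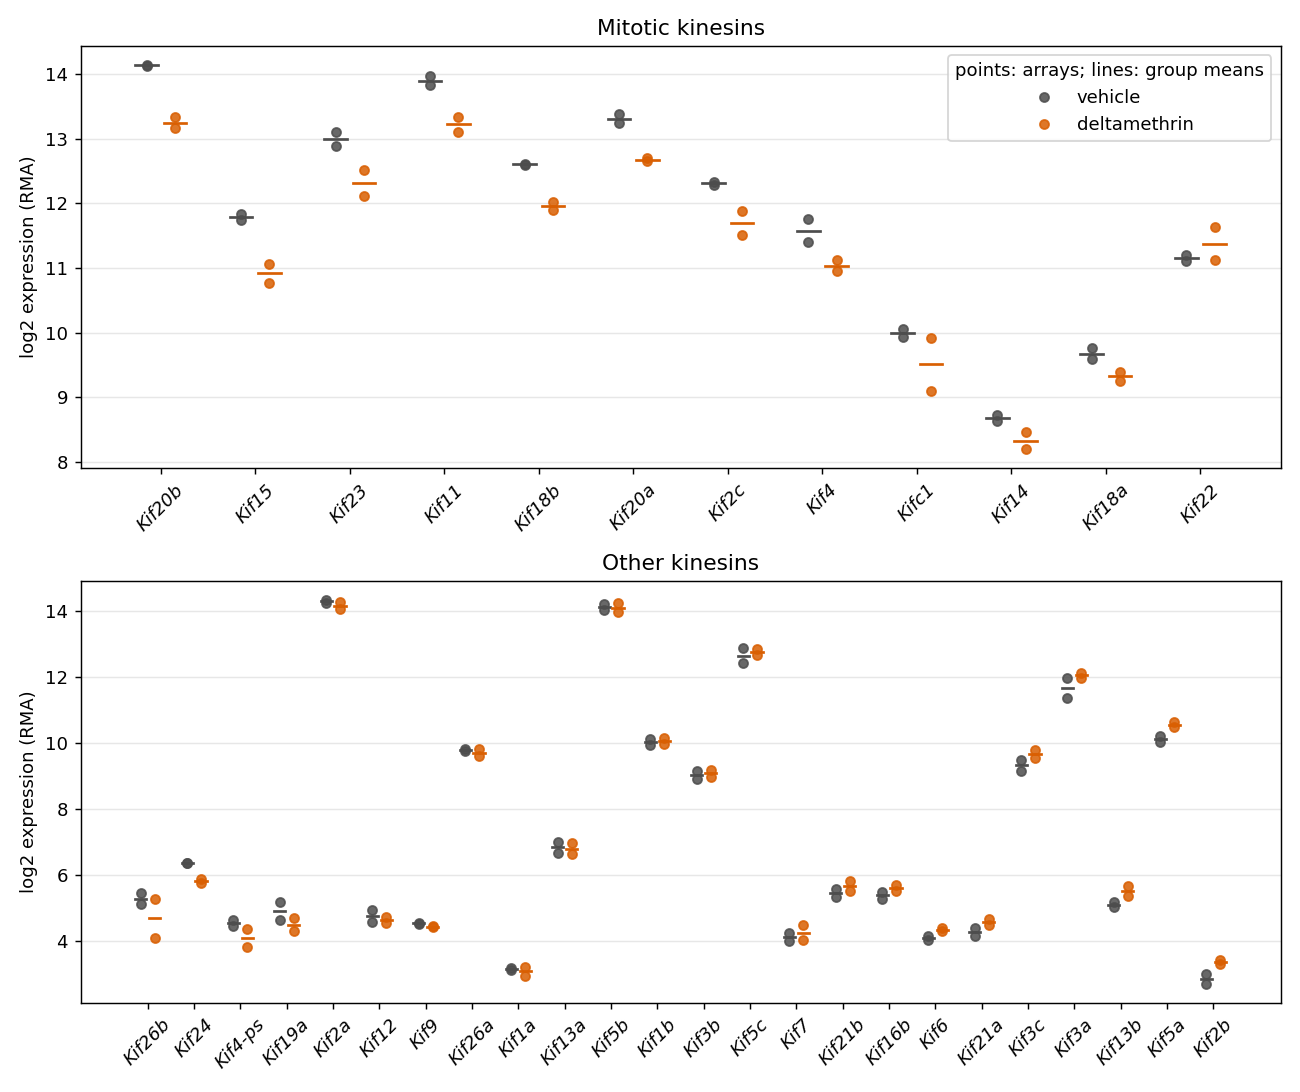
Log2 expression of each mitotic kinesin (top) and of each other kinesin (bottom), with a point per array and a line at the mean of each group of 2 arrays. Deltamethrin arrays (orange) lie below vehicle arrays (grey) for 11 of 12 mitotic kinesins, whereas the groups overlap for 14 of the 24 others and for 56.1% of all probe sets.

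Kif11 and Kif15 keep the spindle bipolar: Kif11 (Eg5) slides antiparallel microtubules apart, and Kif15 can stand in for it. Kif11 read 13.83 and 13.97 with vehicle and 13.11 and 13.34 with deltamethrin. The groups did not overlap, and the log2 fold change was -0.68 ± 0.18 (SE, n = 2 arrays per group; limma adjusted p = 0.197, 0.0197 with the trend). Kif15 read 11.74 and 11.84 with vehicle and 10.77 and 11.07 with deltamethrin, again without overlap. Its estimate, -0.87 ± 0.18 (limma adjusted p = 0.142, 0.0155 with the trend), put deltamethrin at 54.7% of vehicle. Kifc1 (HSET), the minus-end motor that draws microtubules together at the poles, read 9.93 and 10.06 with vehicle and 9.10 and 9.92 with deltamethrin. The second deltamethrin array was thus just under the vehicle arrays and the first well under them, and the estimate of -0.49 ± 0.28 had a 95% interval of -1.16 to 0.19. Without deltamethrin replicate 1 that estimate was -0.08, and without replicate 2 it was -0.90. Mouse Kifc5b is a close relative of Kifc1 whose RNA the probes may not tell apart, and it read 6.96 and 7.36 with vehicle and 7.16 and 6.82 with deltamethrin (-0.17 ± 0.22).

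Cytokinesis was represented by Kif14, Kif20a, Kif20b and Kif23. Kif20b, needed for the last steps of abscission, had the lowest estimate of all 36 members: 14.13 and 14.14 with vehicle against 13.17 and 13.33 with deltamethrin. The gap between groups was several times that within either, and the log2 fold change of -0.89 ± 0.17 had a 95% interval of -1.29 to -0.48 (limma adjusted p = 0.00319 with the trend). Kif23, the motor of the centralspindlin complex, read 12.89 and 13.11 with vehicle and 12.12 and 12.51 with deltamethrin. It changed by -0.69 ± 0.20 (limma adjusted p = 0.238, 0.043 with the trend). Kif20a, which carries regulators of cell division to the midzone, read 13.24 and 13.38 with vehicle and 12.65 and 12.70 with deltamethrin. All 4 arrays were tight within groups, and its estimate was -0.64 ± 0.17 (limma adjusted p = 0.195, 0.0214 with the trend). Kif14, which works with citron kinase at the midbody, had a smaller difference, with 8.64 and 8.73 for vehicle and 8.46 and 8.20 for deltamethrin. Its estimate of -0.36 ± 0.18 had a 95% interval of -0.78 to 0.07, which includes 0, and without deltamethrin replicate 2 it was -0.23.

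Motors of chromosome movement other than Kif22 had estimates from -0.64 to -0.35. Kif18b, which limits astral microtubules, read 12.60 and 12.61 with vehicle and 11.90 and 12.03 with deltamethrin. The vehicle arrays were nearly equal and the change was -0.64 ± 0.17 (limma adjusted p = 0.192, 0.0261 with the trend). Its relative Kif18a, which damps chromosome oscillations at the metaphase plate, read 9.59 and 9.76 with vehicle and 9.39 and 9.26 with deltamethrin. The groups were apart by little, at -0.35 ± 0.17 (limma adjusted p = 0.433). Kif2c (MCAK), which depolymerises microtubules at centromeres to correct faulty attachments, read 12.29 and 12.33 with vehicle and 11.51 and 11.88 with deltamethrin. Its estimate of -0.62 ± 0.19 did not pass in either fit (limma adjusted p = 0.255, 0.0591 with the trend). For the chromokinesin Kif4, which binds chromosome arms and the midzone, the values were 11.40 and 11.76 with vehicle and 10.95 and 11.13 with deltamethrin. The log2 fold change was -0.54 ± 0.20 (limma adjusted p = 0.313). The pseudogene Kif4-ps, which may share probes with Kif4 and counts among the others by its symbol, was dim and read 4.63 and 4.46 with vehicle and 3.83 and 4.38 with deltamethrin.

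The exception was Kif22 (Kid), the chromokinesin that pushes chromosome arms away from the poles. It read 11.11 and 11.20 with vehicle and 11.13 and 11.63 with deltamethrin. The first deltamethrin array lay between the vehicle arrays and the second above them, so the groups overlapped. Its estimate of 0.23 ± 0.21 (limma adjusted p = 0.706) had a 95% interval of -0.29 to 0.74, and without deltamethrin replicate 2 it was -0.025. That interval leaves out the estimates of the 11 other mitotic kinesins, but no difference between Kif22 and them was tested. Its window, printed above, holds a CHR 17 bases before the start and a CCAAT box 54 bases before it, a layout close to that of Kif11.

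**Figure D3:**
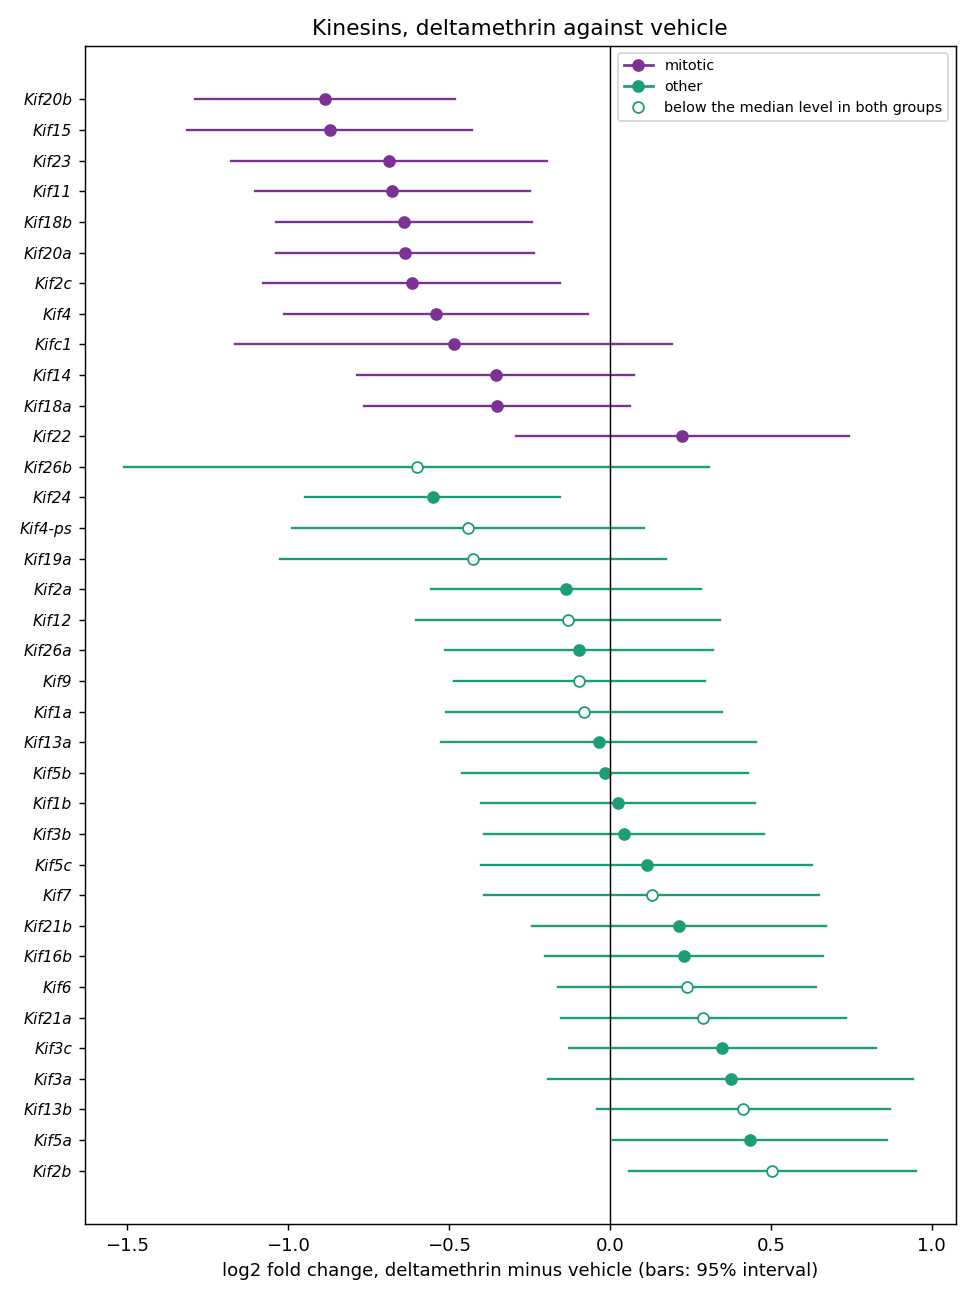
Log2 fold change of each of the 36 kinesins, deltamethrin minus vehicle, with its 95% interval from limma. Filled points are above the median level of all probe sets in the group where they are higher. The intervals of 8 mitotic kinesins lie wholly below 0, from Kif20b to Kif4, and those of Kifc1, Kif14, Kif18a and Kif22 span 0. Among the others, that of Kif24 lies wholly below 0 and those of Kif5a and Kif2b wholly above. Such an interval goes with an unadjusted limma p below 0.05, which 6.84% of all probe sets had as lower and 6.83% as higher.

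Mitotic kinesins also differed in the same direction between arrays of a group. Vehicle replicate 2 was higher than vehicle replicate 1 for all 12, by 0.01 to 0.36. Deltamethrin replicate 2 was higher than replicate 1 for 10 of 12, the exceptions being Kif14 and Kif18a, with differences of -0.26 to 0.82 and a median of 0.21 (0.00 over all probe sets). Of the 24 other kinesins, 14 were higher in vehicle replicate 2 and 16 in deltamethrin replicate 2. Of the 13 others above the median level, 10 were higher in replicate 2 in each group. Their median differences were 0.19 with vehicle and 0.18 with deltamethrin, so such a shift was not particular to the mitotic class. The mean level of the 12 mitotic kinesins was 11.8 and 11.9 on the vehicle arrays and 11.2 and 11.4 on the deltamethrin arrays. For the 24 other kinesins it was 7.17 and 7.22 with vehicle and 7.17 and 7.29 with deltamethrin. The class means of the mitotic kinesins did not overlap between groups, and those of the others did. The arrays read bulk RNA, so fewer cells in mitosis and less RNA per mitotic cell cannot be told apart.

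Transport kinesins are the motors of axons and dendrites. Of the 13 measured here (kinesin-1, kinesin-2, kinesin-3 other than Kif14, and Kif21a and Kif21b), 10 had higher and 3 lower estimates, with a median of 0.22, and 0 passed the limma test in either fit. Kinesin-1 is the conventional motor for vesicles and mitochondria, with Kif5b in all cells and Kif5a and Kif5c mostly in neurons. Kif5a read 10.02 and 10.22 with vehicle and 10.47 and 10.64 with deltamethrin. All deltamethrin values were above all vehicle values, at 0.44 ± 0.18 (limma adjusted p = 0.358, 0.215 with the trend). Kif5b read 14.02 and 14.20 with vehicle and 13.96 and 14.23 with deltamethrin, an overlap with an estimate of -0.02 ± 0.18 and a 95% interval of -0.46 to 0.43. Kif5c read 12.41 and 12.88 with vehicle and 12.67 and 12.85 with deltamethrin. The deltamethrin arrays fell between the vehicle arrays, and the estimate of 0.12 ± 0.21 turned to -0.12 without vehicle replicate 1. The 3 kinesin-1 genes therefore ranged from -0.02 to 0.44, with intervals that overlap.

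Kinesin-2 pairs Kif3a with Kif3b or Kif3c, for intraflagellar transport in cilia and for vesicles in axons. Kif3a read 11.37 and 11.96 with vehicle and 11.95 and 12.13 with deltamethrin. One value of the vehicle pair stood low and the other reached the deltamethrin level, and the estimate was 0.38 ± 0.24 (limma adjusted p = 0.545). Without vehicle replicate 1 it was 0.08, and without vehicle replicate 2 it was 0.67. Kif3c, enriched in neurons, read 9.15 and 9.49 with vehicle and 9.55 and 9.79 with deltamethrin. The groups were just apart, at 0.35 ± 0.20 (limma adjusted p = 0.502), and without vehicle replicate 1 the estimate was 0.18. Kif3b overlapped between groups, with an estimate of 0.05 ± 0.18.

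Among kinesin-3 motors, Kif1a, the main carrier of synaptic vesicle precursors, was dim on these arrays, with 3.20 and 3.14 for vehicle and 3.22 and 2.96 for deltamethrin. No detection call was given, so it is not known whether such dim values were above background. Kif1b, which carries mitochondria and vesicle precursors, was above the median level of all probe sets and overlapped between groups (0.03 ± 0.18, 95% interval -0.40 to 0.45). Kif16b, a motor of early endosomes, read 5.50 and 5.28 with vehicle and 5.53 and 5.71 with deltamethrin. It passed the median level of all probe sets, 5.60, with deltamethrin alone, and its estimate was 0.23 ± 0.18 (0.12 without vehicle replicate 2). Kif13a, another endosomal motor, was at -0.04 ± 0.20, and the dim Kif13b was at 0.42 ± 0.19. Of the kinesin-4 relatives that regulate neuronal microtubules, Kif21b read 5.34 and 5.57 with vehicle and 5.53 and 5.81 with deltamethrin. It too passed the median level with deltamethrin alone. Its groups overlapped at 0.22 ± 0.19, and leaving out 1 array gave 0.075 (without deltamethrin replicate 2) to 0.355 (without deltamethrin replicate 1). The dim Kif21a was at 0.29 ± 0.18.

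The remaining 11 members have further roles or are little characterised, and 8 had lower and 3 higher estimates. Kif2a, the microtubule depolymeriser of neurites and spindle poles, read 14.24 and 14.33 with vehicle and 14.04 and 14.26 with deltamethrin. The groups overlapped and the estimate was -0.14 ± 0.17 (-0.025 without deltamethrin replicate 1), whereas its relative Kif2c was at -0.62, a difference between genes that was not tested. Kif24, a depolymeriser at centrioles that restrains cilium formation, read 6.37 and 6.37 with vehicle and 5.88 and 5.76 with deltamethrin. It was the brighter other kinesin with the lowest estimate, -0.55 ± 0.16 (limma adjusted p = 0.24, 0.283 with the trend). Kif26b was lower still at -0.60 ± 0.38, but it was dim and its deltamethrin arrays were far apart, at 4.10 and 5.28. Kif24 and Kif26b are also the 2 other kinesins with a CHR within 30 bases of the start, which was seen after the values. That distance was chosen after the positions were seen, and it leaves out the CHR of Kif1a, which lies further from the start. The dim Kif1a was at -0.08 ± 0.18. Whether a CHR goes with a lower estimate among the other kinesins was not tested. Kif26a, a relative of Kif26b, was at -0.10 ± 0.17. The ciliary kinesins Kif6, Kif7, Kif9 and Kif19a and the genes Kif2b and Kif12 were all below the median level, with estimates from -0.43 for Kif19a to 0.51 for Kif2b. In all, 11 of the 24 other kinesins were below the median level in both groups.

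**Figure D4:**
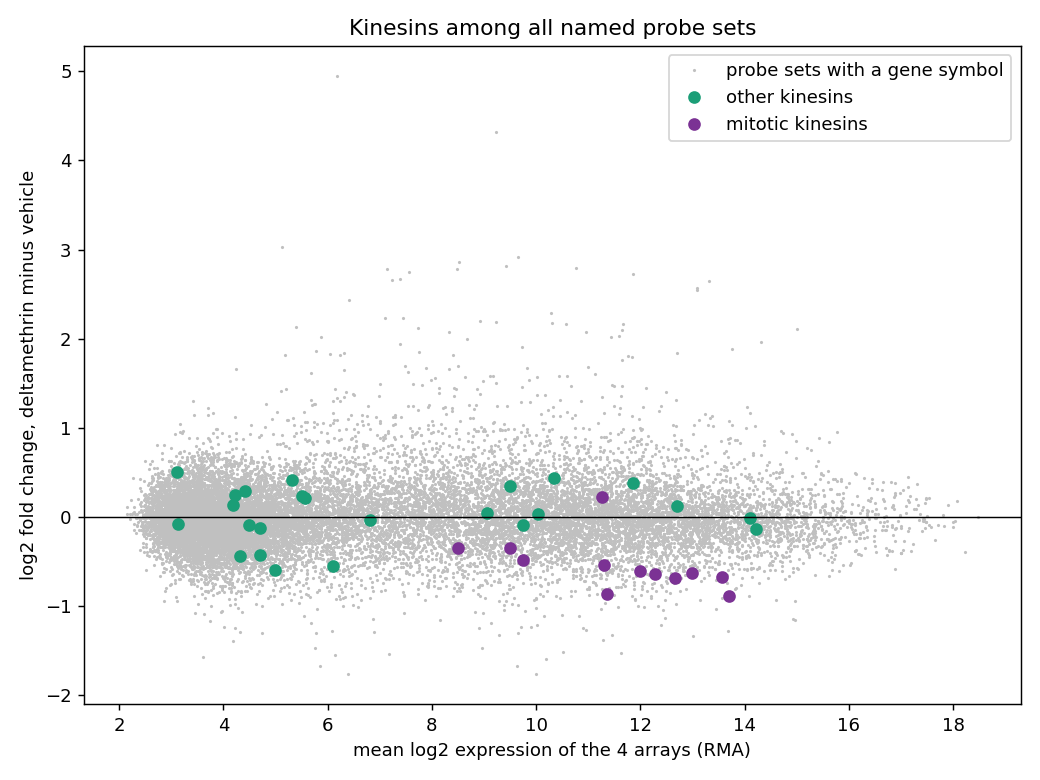
Log2 fold change (deltamethrin minus vehicle) against the mean log2 level of the 4 arrays, for the 19572 probe sets with a gene symbol (grey), the 24 other kinesins (green) and the 12 mitotic kinesins (purple). Mitotic kinesins lie in the bright part of the plot and below 0 except Kif22, and the others spread to both sides of 0.

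The genes that work with the mitotic kinesins had estimates of like size. In a list of 26 measured partners, most of which hold, recruit or regulate spindle and midzone motors, 22 had lower and 4 higher estimates, with a median of -0.54. None passed the limma test over all probe sets, 15 were lower at an unadjusted p below 0.05 (6.84% of all probe sets), and 11 fell with the trend (1.38% of all probe sets, and 2.65% of those above the median level, as every partner was). Among these was Plk1, the kinase that docks on Kif20a, with 14.61 and 14.68 for vehicle and 13.72 and 14.09 for deltamethrin (-0.74 ± 0.19, limma adjusted p = 0.0169 with the trend). Prc1, which bundles the midzone microtubules that Kif4 elongates, read 11.90 and 12.08 with vehicle and 11.15 and 11.44 with deltamethrin (-0.70 ± 0.19). Aurkb, the kinase of the chromosomal passenger complex, was at -0.63 ± 0.16, and Tpx2, a spindle assembly factor that binds Kif11 and Kif15, was at -0.59 ± 0.18. Nuf2, a kinetochore protein, had the lowest estimate (-0.81 ± 0.17). The spindle checkpoint kinase Ttk (-0.79 ± 0.17), Hmmr (-0.75 ± 0.20), Nusap1 (-0.66 ± 0.18), the spindle pole kinase Aurka (-0.65 ± 0.17), Dlgap5 (-0.62 ± 0.17) and Ect2, the exchange factor that starts furrowing (-0.57 ± 0.18), make up the rest of the 11. Among partners that did not pass, Racgap1, which binds Kif23 in centralspindlin, was at 0.12, Cit at 0.01 and Ckap2 at -0.06. Cenpe, listed here although it is itself a kinesin motor outside the symbol pattern, was at -0.55 and did not pass either. Kifbp, a protein that blocks the motor domains of several kinesins, had the highest, 12.35 and 12.56 against 12.90 and 12.69 (0.34 ± 0.18, limma adjusted p = 0.474).

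Regulators of mitotic gene expression were lower in 22 of 25 measured probe sets (24 genes), with a median of -0.34. At an unadjusted limma p below 0.05, 12 were lower and 0 higher, against 6.84% and 6.83% of all probe sets. E2f7, an E2F repressor, was the 1 member that passed the limma test over all probe sets, where 0.0766% passed as lower and 0.356% as higher. It read 10.51 and 10.42 with vehicle and 8.78 and 8.80 with deltamethrin, and fell by 1.68 ± 0.16 (limma adjusted p = 0.0245). With the trend 7 fell (again against 1.38% of all probe sets, and 2.65% above the median level). Beside E2f7 these included Mybl2, the B-Myb factor that acts at CHR promoters (-1.01 ± 0.17, limma adjusted p = 0.00479 with the trend). The E2F repressor E2f8 was at -1.04 ± 0.18, and the activators E2f2 and E2f1 were at -0.92 ± 0.24 and -0.81 ± 0.20. The last of the 7 were Cdk1, the kinase that starts mitosis (-0.57 ± 0.17), and its cyclin Ccna2 (-0.59 ± 0.16). Ccnb2, a mitotic cyclin of Cdk1, was at -0.12 and did not pass, nor did the CDK inhibitor Cdkn1a at 0.24. Nfyb, a subunit of the CCAAT-binding factor, had the highest estimate, 0.27 ± 0.17.

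Partners of the transport kinesins were spread around 0. Light chains, cargo adaptors and regulators had a median of 0.02, with 13 of 23 higher, 9 lower and 1 at 0, and 0 passed the limma test (5 higher and 0 lower at an unadjusted p below 0.05, against 6.83% and 6.84% of all probe sets). With the trend 1 rose, against 2.25% of all probe sets: Madd, an adaptor of Kif1a and Kif1b, which read 5.12 and 6.17 with vehicle and 7.05 and 7.05 with deltamethrin. Its vehicle arrays were far apart, and the estimate was 1.41 ± 0.33 (limma adjusted p = 0.047 with the trend). Trak2, a mitochondrial adaptor, was lowest among the brighter members at -0.29 ± 0.18. Dynein, the motor that runs the opposite way, and its dynactin partners had a median of 0.05, with 14 of 22 higher. At an unadjusted limma p below 0.05, 3 were higher and 1 lower, against 6.83% and 6.84% of all probe sets. With the trend 1 rose, against 2.25% of all probe sets. Ndel1, a dynein regulator, read 12.42 and 12.35 with vehicle and 13.19 and 13.20 with deltamethrin. Its estimate was 0.81 ± 0.16, and it rose with the trend fit alone (limma adjusted p = 0.131, 0.00643 with the trend). Its relative Nde1, which also acts at kinetochores, was at -0.43 ± 0.17.

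The track and its coats had medians near 0. The 14 tubulins had a median of -0.10, 5 higher and 9 lower, with 0 passing limma in either fit (2 higher and 0 lower at an unadjusted p below 0.05, against 6.83% and 6.84% of all probe sets). Their range among brighter members ran from Tubb4b (-0.27 ± 0.16) to Tuba4a (0.74 ± 0.16). Of 18 microtubule-associated proteins 6 were higher and 12 lower, with a median of -0.10. At an unadjusted limma p below 0.05, 2 of them were higher and 3 lower, and with the trend 1 rose (2.25% of all probe sets). Stmn4, a neuronal stathmin, averaged 8.09 ± 0.13 with vehicle and 9.34 ± 0.23 with deltamethrin (SD, n = 2 arrays). Its estimate was 1.25 ± 0.19, and it rose with the trend alone (limma adjusted p = 0.00878 with the trend). Map2, the dendritic coat protein, was at -0.56 ± 0.20. Among 26 genes of cilia and their transport, the cargo side of Kif3a and Kif3b, 15 were higher and 11 lower, with a median of 0.06. In this list 4 were higher and 1 lower at an unadjusted limma p below 0.05, and 2 rose with the trend (2.25% of all probe sets). Ift122 and Ift172, parts of the intraflagellar trains, rose with the trend alone: 9.00 and 9.68 against 10.53 and 10.88 for Ift122 (1.37 ± 0.27) and 7.92 and 8.52 against 9.39 and 9.56 for Ift172 (1.26 ± 0.24). The Hedgehog receptor Ptch1 was lowest at -0.60 ± 0.19. The C-terminal kinesins outside the pattern, Kifc2, Kifc3 and Kifc5b, had estimates from -0.25 to -0.11 with a median of -0.17, and 0 passed.

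**Figure D5:**
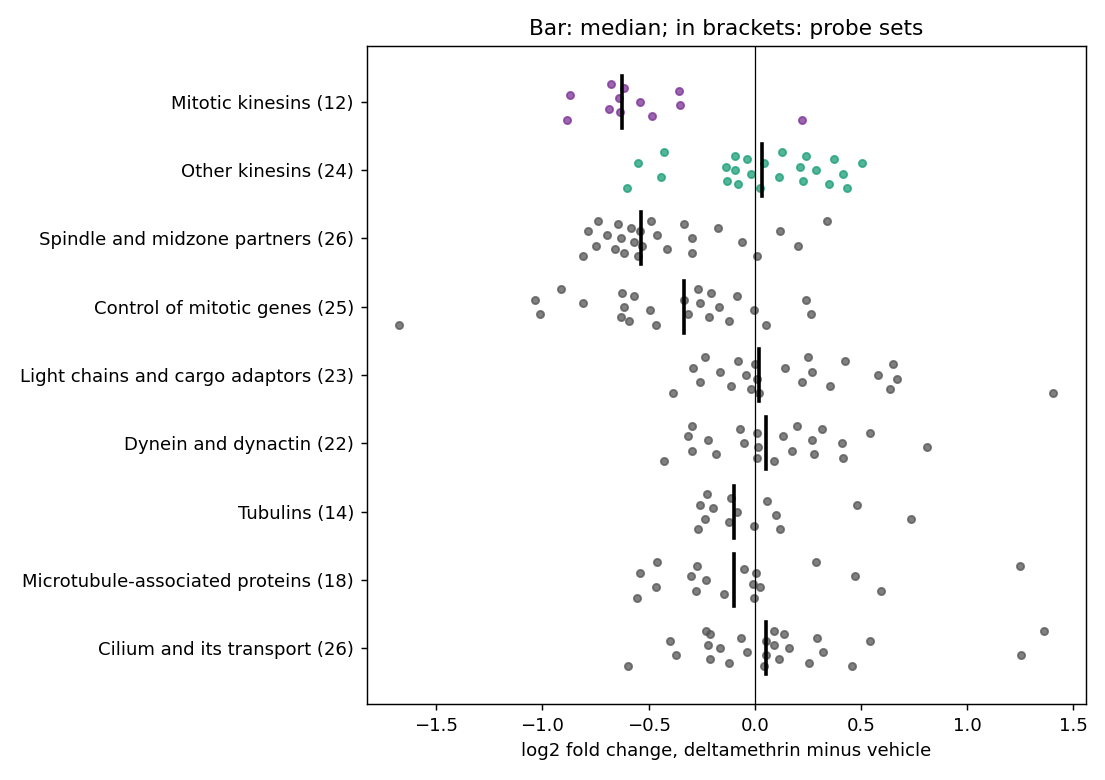
Log2 fold change (deltamethrin minus vehicle) of every measured member of the kinesin classes and of the lists named on the axis, with a black bar at each median. The medians of the mitotic kinesins, their partners and the regulators of mitotic genes are -0.63, -0.54 and -0.34, and those of the remaining lists drawn lie between -0.10 and 0.06.

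The arrays were alike in distribution, with medians from 5.61 to 5.63, and precision is limited by how few arrays there were. The labelled cell type was checked against its markers. Of 8 measured markers of the neuroblastoma lineage, 7 were above the median level and Ddc was below it. With deltamethrin 6 of the 8 had lower and 2 higher estimates, 4 lower and 1 higher at an unadjusted p below 0.05 (6.84% and 6.83% of all probe sets), and 0 passed the limma test. With the trend 1 fell, against 1.38% of all probe sets and 2.65% of those above the median level. This was the transcription factor Isl1, which read 13.15 and 12.92 with vehicle and 11.91 and 11.88 with deltamethrin (-1.14 ± 0.17, limma adjusted p = 0.074, 0.00173 with the trend). Dbh, the enzyme that makes noradrenaline, was at -1.26 ± 0.47, Phox2a at -0.77 ± 0.26, Chga at -0.50 ± 0.17 and Hand2 at -0.27 ± 0.16, whereas Th, the enzyme that starts catecholamine synthesis, was at 0.90 ± 0.27. Of 7 general neuronal markers 5 were above the median level, and Nefl and Nefm were below it in both groups. Of the same 7, 5 had lower and 2 higher estimates, with a range from -0.46 for Elavl4 to 0.25 for Gap43, and 0 passed in either fit. Of 17 measured markers of astrocytes, oligodendrocytes and Schwann cells, microglia and fibroblasts, 16 were below the median level in both groups, the exception being Ptprc. Their mean level was 4.01 and 4.02 on the vehicle arrays and 4.06 and 4.02 on the deltamethrin arrays.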

How the data were processed

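Total RNA of Neuro-2a cells (500 ng, RNA integrity numbers above 9.0) was labelled and hybridised to Clariom S Mouse arrays (per the labels' protocols). The authors deposited log2 expression, 1 value per probe set and array. Per the submitters' processing notes, they used RMA and Transcriptome Analysis Console. No version or RMA variant is given in the sources used here, and the scale was read from the values. RMA sets the arrays to like distributions, so a shift common to most genes would not be seen, and a level was set only against the median of all probe sets, since probes differ in brightness.

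Platform annotation named 19572 of 22206 probe sets, and 2634 were unnamed here. Deltamethrin minus vehicle was fitted over all probe sets with limma 3.58.1 (R 4.3.3; lmFit and eBayes, no trend, no block), with 2 residual and 4.43 prior degrees of freedom. Two-sided tests were used, with Benjamini-Hochberg adjustment and a threshold of 0.05. The fit was tested on simulated data. These were drawn from the fit's own variance model, so they cannot show whether that model holds for these arrays. "Rose" and "fell" mark calls. Errors are SE unless given as SD, and intervals are 95%. Both SE and intervals come from the fit without the trend, also where an adjusted p of the trend fit stands beside them. Members of all lists were described by counts and medians.

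All 12 mitotic kinesins were named, and the 8 largest changes among other kinesins above the median level (5.60) in their higher group. From each list came the members of largest rise and fall above that level and all members called in either fit. Other list members named were picked with their values known. The members and lists were chosen with earlier results of these data known. Promoter windows came from RefSeq (GRCm38.p6). In all 1670 pairs of overlapping windows on opposite strands the shared bases were reverse complements. Alternatives were a replicate block, a mean-variance trend, no moderation, a filter at the 40th percentile of level, quantile and median scaling, leaving out each array, an adjusted p below 0.10 and other class memberships.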

Additional observations from a re-analysis of the deposited data

How the results depend on the processing

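The median of the mitotic kinesins was below 0 under each alternative that gave one. A replicate block or a mean-variance trend cannot change a fold change in this balanced design. The filter on level kept all 12 mitotic kinesins, so under these alternatives the median stayed at -0.63. Leaving out each array in turn, that median ran from -0.75 to -0.49 and that of the others from 0.00 to 0.12. Counts of calls depended on the variance model and the filter. A mean-variance trend gave 806 called probe sets in place of 96, and 6 mitotic kinesins in place of 0. Leaving out dim probe sets gave 312 and 1, Kif20b (limma adjusted p = 0.0439), whose adjusted p ran from 0.00319 to 0.678 over its alternatives. Statistics without moderation gave 0 called probe sets (2293 at an unadjusted p below 0.05), and an adjusted p below 0.10 gave 233. Leaving out any array gave 0 to 0 calls, and each such fit takes the lone array to be as variable as the group of 2. The other kinesins had 0 calls under every alternative.

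Leaving out 1 array turned the sign of 2 named kinesins: Kif22 ran from -0.025 to 0.475 and Kif5c from -0.12 to 0.35. With the replicate number as a block, limma called 0 probe sets (3221 at an unadjusted p below 0.05), and 0 kinesins, as without it. The deviations of same-numbered arrays correlated at 0.13, and the labels do not say that a number marks a shared culture.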
